A study of Mus musculus with 5 samples.

Results

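The data described here are 100 array probes whose transcripts gave a clear signal in mouse T-cell acute lymphoblastic leukemia (T-ALL) driven by Notch1 and little signal in 4 other blood cell populations. They were taken from 23473 probes on 5 mouse microarrays of 2 colours. The members were chosen by their signal in the wild-type IL7R (WT) channel alone. A signal here is the spot's median brightness in scanner units minus the median of the blank spots on the same array. Of all probes, 14524 had a WT signal under 100 on each of the 4 arrays other than T-ALL, and the 100 of these with the highest WT signal on the T-ALL array formed the list. The WT values on all 5 arrays are therefore a description and support nothing further. The channel for the mutant IL7R, named INS in the labels, came from other cells and took no part in the choice.

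IL7R is the alpha chain of the receptor for interleukin-7, a cytokine that early T cells and, in the mouse, early B cells need in order to grow, and it signals through JAK kinases and STAT5. Notch1 is a surface receptor whose intracellular part is released on activation, enters the nucleus and switches on target genes. It directs lymphoid progenitors to the T-cell fate, and activating mutations of Notch1 and of IL7R both occur in human T-ALL.

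All cells were Balb/c cells transduced with a retrovirus for IL7R-WT or IL7R-INS, so the controls also carried an added receptor. For the T-ALL array, KSL cells (a bone marrow fraction rich in stem cells) received IL7R-WT or -INS together with a vector for intracellular Notch1 (ICN1), were transplanted into lethally irradiated recipients, and the leukemic cells were sorted around day 30 to 40. The CLP culture held transduced lymphoid progenitors kept for 5 to 7 days on OP9 stroma with mSCF, hIL7 and hFlt3L. The B cells were IgM+B220+ cells around day 60 from CLP cells given to recipients irradiated with 4 Gy, and the labels call only the INS cells leukemic. The KSL culture was grown for 4 to 5 days with mSCF, mTPO, hIL6, hFlt3L and IL3; its description opens by calling it in vivo, but the rest of it and the title give a culture. The CMP cells were the myeloid progenitor fraction of recipients of transduced KSL cells around day 40. Only the T-ALL cells carried ICN1, so that vector and the cell type cannot be told apart in what follows. In the WT channel the leukemic state cannot be told apart from them either. Among the INS cells the B cells were leukemic without ICN1, but they also differ from T-ALL in cell type.

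Cells of each sample were pooled, and each setting had 1 array with WT in Cy5 and INS in Cy3. There was no replicate and no dye swap. No p-value was computed, the spread between samples was not measured, and genotype and dye cannot be told apart on any array. The number of arrays limits the precision of every value below. In bulk RNA such as this, fewer cells of a type and less RNA per cell cannot be told apart either. The files used here do not pair probe IDs with genes, and 0 of 23473 IDs were in the reference table of gene names. Probes are therefore named by ID, and T-cell markers and Notch1 target genes were not analysed here.

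Scanner gain differed between arrays. It was 38 for Cy5 and 42 for Cy3 on both the KSL culture and the T-ALL array, 37 and 39 for the CLP culture, 37 and 40 for B cells, and 36 and 37 for CMP. A brightness can thus be set side by side most directly for T-ALL and the KSL culture. The CMP array was the dimmest, with 58.2% of all probes detected in INS and 71.4% in WT, against 76.1% to 83.2% per channel on the other arrays.

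In WT T-ALL the 100 members spanned a signal of 150 to 8833, with a median of 346.5, and 24 of them reached 1000. Their median WT signal was 15.5 in the CLP culture, 13.5 in the B cells, 11 in the KSL culture and 6.5 in the CMP. These levels follow from the choice. M400004660 headed the list, with a WT signal of 8833 in T-ALL against 16 in the CLP culture, 28 in the B cells, 10 in the KSL culture and 12 in the CMP. M200001795 came next, at 6466 in T-ALL against 27, 46, 29 and 9 in the same order. The seventh, M400004323, was at 4596 and the eighth, M400005626, at 2870. At the lower end M200012063 and M200001108 were the last inside, at 151 and 150, and M200003046 and M300020889 the first outside, both also at 150 and left out by their ID. The other limit was close for 9 members, whose highest WT signal elsewhere was within 10 units of it. Conversely, 6 probes at least as bright in WT T-ALL as the last member were left out for a highest WT signal elsewhere of 100 to 110.

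Spots without a probe did not meet the rule. Among 1102 such spots the highest WT signal on the T-ALL array was 12, among 96 negative control spots it was 8, and among 2736 blank spots it was 38. None of them reached the 150 of the last member. In INS the highest signals on this array were 22, 24 and 1064 in the same order, so at least 1 blank spot was bright in that channel.

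In the INS channel, nearly every member was again bright in T-ALL. The INS signal on the T-ALL array ran from 19 to 26921 with a median of 675, and 34 members reached 1000. It was at least 100 for 97 of the 100 members, against 38.8% of all probes and 8.17% of the 14524 probes with a low WT signal elsewhere. Neither share is matched for WT brightness on this array, where 1.59% of the 14524 reached 100 in WT. The members were chosen as bright in WT on the same spots, so the count is a description only. The 3 that stayed under 100 were M400001200 at 19, M300006927 at 23 and M400002540 at 39.

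Each channel has its own dye and gain, so the raw signals do not by themselves give a fold change. The INS signal exceeded the WT signal for 81 members, and the median of the INS to WT signal ratio was 1.82. Over the 6947 probes with a signal of at least 100 in both channels of this array it was 1.83. Those probes were cut in both channels and the members by WT, so nothing is read from how close these values are. Across the 100 members the log2 signals of both channels had a Pearson r of 0.743 and a Spearman rho of 0.76. This is a description across probes that share the spot, the array and the cut at 150 in WT.

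**Figure D1:**
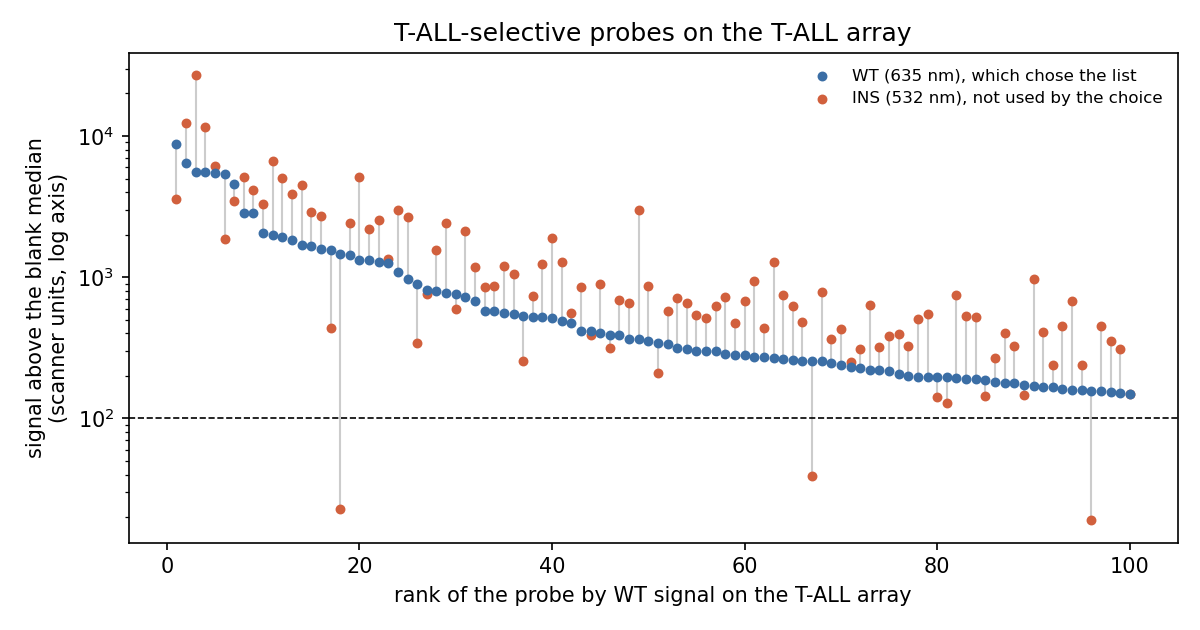
Signal above the blank median on the T-ALL array for the 100 members, by rank of the WT signal (log axis, scanner units); blue points are WT, orange points INS, grey lines join the channels of a probe, and the dashed line is at 100. INS points lie above WT for 81 members, and 3 members fall below 100 in INS.

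The INS signal was also higher in T-ALL than on each other array for 99 of 100 members, against 24% of all probes and 27.8% of those with a low WT signal elsewhere. With each array scaled by its 75th percentile it was 96, and over the local background 97. The exception was M400002540, with INS signals of 55 in the CLP culture, 51 in the B cells, 125 in the KSL culture, 39 in T-ALL and 71 in the CMP. The INS signal in T-ALL was divided by the highest INS signal elsewhere; for 7 members that was below detection, the detection limit took its place, and the fold is a lower bound. By this measure 92 members were at least 2 times as bright in T-ALL as on any other array, and 54 at least 10 times. The median was 12 times and the range 0.312 to 928 times. Against the KSL culture, scanned at the same gain, 99 members were brighter in INS T-ALL, with a median of 28.4 times when the 20 members under the detection limit there are set at that limit. The rule chose spots bright in WT T-ALL and dim in WT elsewhere, and the shares of 24% and 27.8% are not matched for this. These counts and folds are therefore a description and no independent support for the list.

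M200003376 had the highest INS signal of all members in T-ALL, at 26921. Its INS signal was 29 in the CLP culture, 29 in the B cells, 20 in the KSL culture and 4 in the CMP, and its WT signals were 6, 18, 10 and 6 on these arrays and 5601 in T-ALL. M200001795 followed at 12413 in INS T-ALL, against 50, 37, 65 and 17. Both were thus bright in the T-ALL channels and nowhere else.

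INS cells of the other settings also gave signal for some members. An INS signal of at least 100 was reached by 10 members in the CLP culture, against 36.2% of all probes and 3.39% of those with a low WT signal on the 4 arrays. In the B cells it was 15 members, against 37.5% and 5.11%. In the KSL culture 20 members reached it, against 41.5% and 8.87%, and in the CMP 1 did, against 15.9% and 0.399%. The rule cut the WT signals on these arrays at 100, so they are set beside the counts as a description only. Of the 20 in the KSL culture, 17 had a WT signal of at least 50 there, as did 5 of 10 in the CLP culture, 7 of 15 in the B cells and the 1 in the CMP. Members had such a WT signal more often than the probes they were drawn from: 18% against 8.21% in the KSL culture, 17% against 7.46% in the B cells, 12% against 8.94% in the CLP culture and 7% against 1.82% in the CMP. The part of this in the counts was not tested. In all, 70 members stayed under 100 in INS on all 4 arrays, 17 reached it on 1 of them, 10 on 2 and 3 on 3. Over the local background of each spot the counts were 3 in the CLP culture, 5 in the B cells and 8 in the KSL culture. With each array scaled by its 75th percentile they were 10 in the KSL culture and 29 in the CMP, the dimmest array. That percentile in INS was 34 in the CMP, against 233 to 404 on the other arrays, so scaling lowers the limit there toward the blanks. The shares of all probes under these alternatives were not computed.

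**Figure D2:**
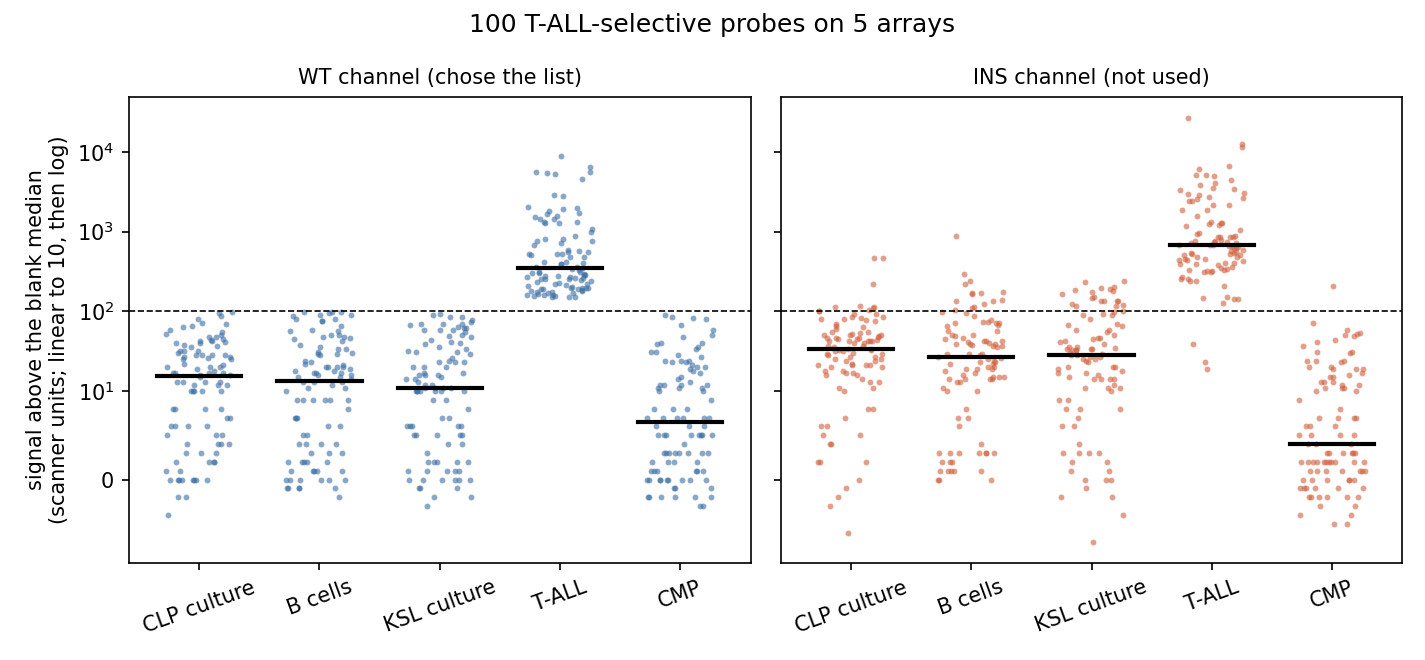
Signal above the blank median for the 100 members on each of 5 arrays, WT on the left and INS on the right (scanner units; the axis is linear up to 10 and logarithmic above). Each point is a probe, the bar is the median and the dashed line is at 100: the INS median is 675 in T-ALL, 33.5 in the CLP culture, 26.5 in the B cells, 28 in the KSL culture and 4 in the CMP.

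The ratio of INS over WT was taken after background correction and loess normalization within each array, and a probe was compared where at least 1 channel was detected. Here and below, higher and lower mean at least 2-fold apart in INS over WT. On the T-ALL array all 100 members were compared, and their median log2 ratio was 0.01, against 0 for all 19363 probes compared. Of these members 5 were higher in INS, against 1.81% of all probes compared, and 14 were lower, against 0.599%. The log2 ratio ranged from -4.95 to 2.06, with quartiles at -0.32 and 0.41, against -0.1 and 0.14 for all probes. The WT side of this ratio chose the members, so nothing is read from this median, these counts or this spread. The split also turned with the scaling: with median centring in place of loess, 14 members were higher and 8 lower, with a median of 0.36, while the median of all probes compared moved only to 0.09. With normexp on the local background 9 were higher and 10 lower.

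The same rule applied to INS signals gave a list that shared 57 probes with the WT list. Of that INS list, 33 probes were higher in INS and 5 lower on the T-ALL array, with a median log2 ratio of 0.55; here the INS side chose the probes, and nothing is read from it either. Among the 57 probes chosen in both channels, 4 were higher and 5 lower, and the median was 0.06. This comparison was added after the data had been seen.

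Among the members higher in INS T-ALL, M300013658 had the largest difference. Its INS signal was 2977 in T-ALL against 6, 10, 9 and 2 in the CLP culture, B cells, KSL culture and CMP, and its WT signal 363 against 8, 7, 5 and 1. After normalization it was 4.17-fold higher in INS T-ALL (4.06-fold to 6.54-fold over the other settings that gave a ratio). With the local background subtracted it had no ratio, because a channel was not above that background. M200003376, the brightest member in INS, was 3.07-fold higher (2.48-fold to 3.53-fold). The other 3 were named after their values had been seen. M300001204 was 2.63-fold higher, with T-ALL signals of 969 in INS and 169 in WT. M300011013 was 2.38-fold higher (1283 and 267), and M400011526 2.22-fold higher (5117 and 1329).

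M300006927 was the member furthest apart, and on this array no probe had a lower ratio. Its WT signal in T-ALL was 1454, and its INS signal there was 23. On the CLP culture, B cell, KSL culture and CMP arrays it had 10, 9, 9 and 2 in WT and 10, 14, 11 and 2 in INS, so only the WT T-ALL cells were bright. It was 30.9-fold lower in INS (10.4-fold to 124-fold over the other settings that gave a ratio). With the local background subtracted this probe also had no ratio. M200000604 followed, 5.65-fold lower (4.35-fold to 6.96-fold), with T-ALL signals of 436 in INS and 1547 in WT. Elsewhere it had WT signals of 17, 7, 14 and 31 and INS signals of 16, 66, 34 and 24.

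Of the 14 lower members, 11 still had an INS signal of at least 100, and the other 3 are the probes under 100 named above. M400004660, the brightest member in WT, was among the 14: it had an INS signal of 3580 against 8833 in WT and was 3.95-fold lower. Its INS signals elsewhere were 22, 38, 34 and 19, so this probe was lower in INS T-ALL while still far above the other arrays. M400001200, with signals of 19 in INS and 156 in WT, was also 3.95-fold lower, and M400002540, with 39 and 256, 4.95-fold lower. By rank, the 50 members brightest in WT held 3 of the higher and 9 of the lower probes, and the next 50 held 2 and 5.

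**Figure D3:**
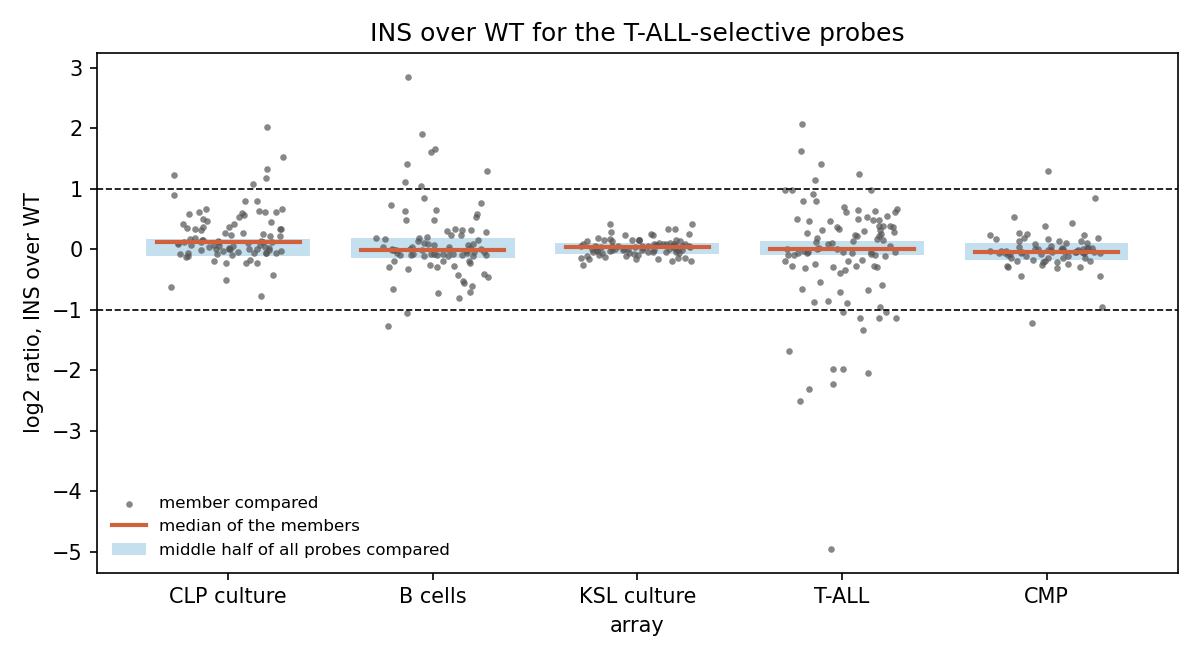
Log2 ratio of INS over WT on each array for the members compared (grey points), with their median (orange bar), the interquartile range of all probes compared (blue band) and dashed lines at 2-fold. The points spread widest on the T-ALL array, from -4.95 to 2.06, and lie between -0.26 and 0.42 in the KSL culture.

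On the other arrays the WT signal was low by choice, so a member there could be far apart mainly by a rise in INS, and again nothing is read from the counts. In the CLP culture 89 members were compared: 6 were higher in INS, against 5.04% of all probes compared, and 0 were lower, against 0.854%. Their median log2 ratio was 0.12, with 64 of 89 above 0, against a median of 0 and 10263 of 20145 above 0 for all probes compared. With the local background subtracted the median of the members was 0.01, against -0.05 for all probes. M300004780 was 4.05-fold higher, with signals of 469 in INS and 55 in WT in the culture; its T-ALL signals were 627 in INS and 260 in WT, and in the B cells, KSL culture and CMP it had 3, 99 and -3 in INS. M200000387 was 2.86-fold higher, with 462 in INS and 97 in WT, and its T-ALL signals were 3012 and 1082. It also had the second lowest log2 ratio of the members in the CMP, at -0.96, with signals of 1 in INS and 58 in WT. The lowest log2 ratios in the culture, -0.78 for M200002658 and -0.63 for M300007341, did not reach 2-fold.

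In the B cells 86 members were compared, of which 8 were higher in INS, against 4.88% of all probes compared, and 2 lower, against 3.97%. The median log2 ratio was -0.01, against 0 for all probes compared. M400000960 stood out: its B-cell signal was 875 in INS and 24 in WT, and it was 7.23-fold higher in INS (4.63-fold to 21.7-fold over the other settings). In T-ALL it had 2534 in INS and 1279 in WT, and elsewhere 65, 28 and 2 in INS in the CLP culture, KSL culture and CMP. This probe thus also gave clear signal in the leukemic INS B cells of that array. M400005626 was at least 3.63-fold higher, with B-cell signals of 219 in INS and 1 in WT, which was below detection; its T-ALL signals were 5121 and 2870. The bound puts the undetected channel at the lowest value of a detected probe. As measured the fold ran from 2.79 to 139 over the other settings that gave a ratio. The 2 lower members, M400002127 and M200007678, rested on signals of at most 97, and with normexp on the local background neither reached 2-fold (1.65-fold and 1.85-fold). With median centring M200007678 also fell short, at a log2 ratio of -0.9.

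The KSL culture held no member at least 2-fold apart among the 84 compared, against 0.161% higher and 0.0208% lower among all probes compared. The extremes were a log2 ratio of 0.42 for M200000387, followed by 0.41 for M400015834, and -0.26 for M200004227, followed by -0.2 for M300016704. KSL cells are also the cells from which the T-ALL was grown; the median INS signal of the members in the culture was 28, while the low WT signal there was fixed by the choice.

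In the CMP 75 members were compared, of which 1 was higher in INS, against 3.03% of all probes compared, and 1 lower, against 3.12%. M400013238 was 2.44-fold higher, with signals of 208 in INS and 68 in WT; it had 163 in INS and 0 in WT in the B cells and 2136 and 725 in T-ALL. M300004973 was at least 2.25-fold lower, with an INS signal of 2, which was below detection, and 85 in WT. With normexp on the local background neither reached 2-fold (1.87-fold and 1.83-fold as measured). The second highest log2 ratio was 0.85, for M200005388. A spot of M200007678 was flagged by the scanner on this array and left out.

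Over all arrays, 65 members were never 2-fold apart where compared, 33 were so on 1 array and 2 on 2 arrays. Of all 23473 probes, 84.7% were 2-fold apart on no array, 12% on 1 and 3.31% on at least 2. The T-ALL ratios in these counts share their WT side with the choice, so nothing is read from the difference. M400013238 was higher in INS in both the B cells and the CMP. M400015614 went in opposite directions, 2.45-fold higher in the INS B cells (174 in INS and 16 in WT) and 2.2-fold lower in INS T-ALL (593 and 765).

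The same rule was applied to the KSL culture, the array at the same gain, and to the B cells, the other array with leukemic cells. By the rule, no probe of either list could be a T-ALL member. INS signals of at least 100 on the list's own array were found for 100 of 100 KSL members and 77 of 100 B-cell members, against 97 of 100 in T-ALL. Of all probes, 41.5%, 37.5% and 38.8% reached 100 in INS on the KSL culture, B-cell and T-ALL arrays. The INS signal was highest on the own array for 95 KSL, 76 B-cell and 99 T-ALL members. For T-ALL the share of all probes was 24%, and for the KSL culture and B cells it was not computed. On its own array the KSL list had a median log2 ratio of 0.03, with 6 probes higher and 0 lower, against 0.161% and 0.0208% of all probes compared. The B-cell list had a median of -2.51, with 0 higher and 94 lower, against 4.88% and 3.97%. For the T-ALL list these values were 0.01, 5 and 14, against 1.81% and 0.599%. The WT side of each ratio chose each list, so these values are a description, and the differences between lists were not tested.

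**Figure D4:**
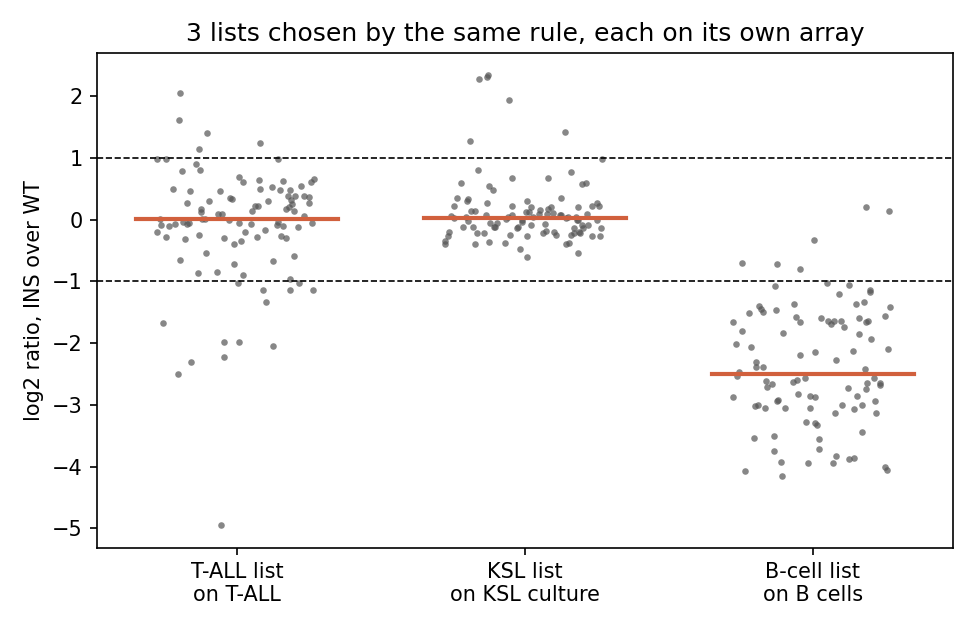
Log2 ratio of INS over WT for 3 lists of 100 probes chosen by the same rule, each shown on the array it was chosen for; points are probes, orange bars medians (0.01, 0.03 and -2.51) and dashed lines 2-fold. All but 6 of the B-cell list lie at or below the lower line, while most points of the T-ALL and KSL lists lie between the lines.

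Position on the slide and spot quality were not used by the rule. Members lay in 22 of 24 printing blocks, with at most 9 in a block, and 4 had another member as a direct neighbour. A direct neighbour at least 10 times brighter in WT was found for 17 members. The shares of all probes with such neighbours were not computed, so nothing is read from these counts. The median local background was 50.8% of the spot signal in WT and 54.1% in INS, against 42.2% and 50.1% for the 5822 probes at least as bright in WT T-ALL as the last member. Those probes reached a WT signal of 62475 and were not matched to the members for brightness, so nothing is read from this difference. The variation between the pixels of a spot was much the same: the median CV was 0.226 in WT and 0.198 in INS, against 0.212 and 0.197. Choosing by signal over the local background kept 61 of the 100 members. By ID series, 43 members began with M2, 27 with M3 and 30 with M4, against 34.2%, 29% and 36.8% of all probes.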

How the data were processed

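Per the labels, amplified RNA carried Cy5 for WT and Cy3 for INS. The deposited scanner files give each spot's linear intensity and its local background separately; per the file headers, ratios run Cy3 over Cy5 and normalization was not recorded. A value table deposited by the authors gives log2 ratios (column medians -4.8e-05 to 4.3e-06), whose background and filter are not given in the sources used here, and served as an alternative. Its log2 ratios for the members correlated with those computed here at r = 0.782 to 0.985 per array, which sets their direction but not their scale; their centring is known only from the medians. Ratios were computed with limma 3.58.1 in R 4.3.3: normexp on foreground medians (offset 50, no local background), then loess (span 0.3) with control spots at weight 0. Flagged spots were left out, and the 1 probe spotted 2 times was averaged. Detection meant a signal over the blank mean plus 2 SD, with 5% of the 2736 blanks trimmed at each end. Higher and lower meant at least 2-fold. The steps were tested on simulated data. For the ratios, changes larger than 2-fold were planted only in probes with a WT signal of at least 1000. In T-ALL 24 members reached that signal, so the test does not cover calls of dimmer members or calls near 2-fold. The offset compresses folds of dim probes. With 1 array per setting no test was run. The list and its rule were chosen with earlier results of these data known. Named are the 2 members with the highest WT T-ALL signal, the 2 last inside and 2 first outside, the 2 highest and 2 lowest ratios per array, and the 2 highest and 2 lowest INS signals in T-ALL; others were named after their values had been seen. Fixed alternatives were other backgrounds, an offset of 10, median centring, loess within blocks, other filters, the pixel mean, the value table, and other limits and scalings of the rule.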

Additional observations from a re-analysis of the deposited data

Results flagged for a closer look

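M400015614 moved in opposite directions in 2 settings. Its log2 ratio of INS over WT was 1.29 in the B cells and -1.14 in T-ALL. With 1 array per setting, the difference was not tested.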

How the results depend on the processing

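That members were bright in INS T-ALL held under each setting tried (90 to 100 of 100 members). The INS signal was highest in T-ALL for 96 to 99. The median ratio over the list stayed within 1.5 times of its main value on each array, although medians near 0 changed sign. Of the 20 named ratios, 12 were 2-fold apart in the main setting, and none of these reversed. Among the rest, the log2 ratio of M300016704 in the KSL culture ran from -0.72 to 0.17. Of the 190 values of the 20 ratios under other settings, 39 moved by over 1.5 times. Settings in which a ratio could not be computed are not among the 190. Membership was less firm: 66 members were kept with a limit of 50, 61 with a limit of 200, 61 over the local background and 57 in the INS channel. Counts of 2-fold members, which are small, varied with the settings. Calls among all probes did too, so nothing about the members is read from these moves. Taking the CLP culture first, then B cells, KSL culture and CMP, the blank median subtracted gave 27, 23, 6 and 10 members higher and 3, 16, 3 and 16 lower. Among all probes it gave 2498, 2420, 668 and 2132 higher and 1291, 2308, 600 and 3039 lower. The main setting gave 1015, 969, 31 and 524 higher and 172, 788, 4 and 540 lower among all probes. With the local background subtracted 16, 19, 10 and 6 members were higher and 9, 13, 4 and 12 lower. Among all probes 2941, 2887, 1193 and 2319 were then higher and 2256, 2837, 1202 and 3014 lower. In T-ALL 12 were then higher, among the 95 members that still had a ratio. By the authors' deposited values 24, 17, 1 and 8 were higher, and 2, 13 and 9 lower in the CLP culture, B cells and CMP. An offset of 10 gave 18, 16 and 3 higher and 2, 8 and 2 lower in those 3. Normexp with the local background gave 2, 4 and 0 higher there, 9 higher in T-ALL, and 0 lower in the B cells and CMP. Under median centring T-ALL had 14 higher and 8 lower, with 1 lower in the B cells and 2 lower in the CMP. Detection in both channels gave 5 higher in the B cells and 0 lower in the CMP, and pixel means gave 2 lower in the CMP. The CMP's 1 higher and 0 lower came from the 50 brightest members and its 0 higher and 1 lower from the next 50. The list chosen in INS gave 2, 1, 33 and 0 higher and 1, 6, 5 and 0 lower in the CLP culture, B cells, T-ALL and CMP; the members chosen in both channels gave 1, 0 and 0 higher in the CLP culture, B cells and CMP, and 5 and 0 lower in T-ALL and the CMP. Both were added after seeing the data. Members with an INS signal past the limit numbered 30, 30, 32 and 6 (CLP culture, B cells, KSL culture, CMP) at a limit of 50, 88, 81, 80 and 52 at the detection limit, and 3, 4 and 3 at a limit of 200 in the first 3. Of all probes, 80.2%, 78.9%, 76.8% and 58.2% were detected in INS on these arrays. Over the local background 3, 5 and 8 members passed the limit of 100 in the CLP culture, B cells and KSL culture. Scaling gave 10 in the KSL culture and 29 in the CMP. Shares of all probes at limits of 50 and 200, over the local background and after scaling were not computed. The cause of these moves was not tested beyond what each setting changes by construction. No paired analysis was possible because each setting has 1 array, and no replicate could be left out. Signals near the blanks limit every ratio outside T-ALL.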
